A study of Mus musculus with 16 samples.

Results

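The 10 genes described here are Cd163, Mrc1, Folr2, Lyve1, Cd209f, Cd209g, Fcna, Cd5l, Fcrls and Stab1, scavenger receptors and related lectins known from tissue-resident macrophages. They were chosen by name from the 32285 genes of the deposited matrices. Results of the anti-CD40 comparisons in macrophages and monocytes were known when they were chosen, so every comparison with anti-CD40 mice is given for them as a description. Counts of these genes past a test's threshold stand there beside the share of all genes, and nothing is read from them. The samples were immune cells of B16 mouse melanomas, captured as single cells with the 10x 3′ v3 chemistry. C57BL/6J mice carried subcutaneous tumours of control Bro4.1 B16 cells or of Bro4.1 B16 cells lacking B2m, which encodes the β2-microglobulin light chain of MHC class I. The sample labels list the loss of B2m as a genotype of the animal, but the study's design describes it as a property of the implanted cells, which is how it is treated here. Each mouse received 100 mcg of agonistic anti-CD40 antibody or of rat IgG2a isotype control intraperitoneally on days 6, 9 and 12, and all tumours were taken on day 14. Tumours were digested enzymatically and enriched for CD45+ cells on magnetic beads, so shares of cells are shares of the enriched and captured cells.

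Each mouse carried its own hashtag and the mice of a lane were pooled. Control tumours under isotype were 5 mice in 2 pools (mice 1 to 3 and 4 to 5), and B2m-null tumours under isotype were 5 mice in 2 pools divided the same way. B2m-null tumours under anti-CD40 were 4 mice in 2 pools of 2. Control tumours under anti-CD40 were 1 pool of 2 mice run in 2 lanes that the labels call technical replicates, so every comparison with that group rests on 2 mice. The tumour lines are cultured lines, and the labels do not say how many clones stand behind the B2m-null cells.

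Scavenger receptors bind and take up altered proteins, lipoproteins, debris and glycans, and macrophages that reside in healthy tissue are known for high levels of several of them. Cd163 encodes the receptor for haptoglobin-haemoglobin complexes, Mrc1 the mannose receptor that takes up glycoproteins and collagen, and Stab1 a large receptor for modified lipoproteins and matrix proteins. Lyve1 encodes a hyaluronan receptor that lymphatic endothelium also makes, Folr2 a folate receptor, and Cd209f and Cd209g are C-type lectins of the DC-SIGN family. Fcna encodes ficolin A, a secreted lectin that can start the lectin pathway of complement. Cd5l encodes a secreted protein of macrophages with scavenger receptor cysteine-rich domains, and Fcrls an Fc receptor-like protein best known from microglia. Perivascular and connective tissue macrophages with Lyve1, Folr2 and Cd163 are known to persist from resident populations in many organs, and monocytes that enter a tumour usually hold little of these transcripts.

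In GRCm38 with the GENCODE vM21 annotation, Cd209f (ENSMUSG00000051906) lies at chr8:4102787-4105835 on the minus strand and Cd209g (ENSMUSG00000079168) at chr8:4134098-4137707 on the plus strand, 28.3 kb apart. Fcrls (ENSMUSG00000015852, chr3:87250758-87263738, minus strand) and Cd5l (ENSMUSG00000015854, chr3:87357881-87371073, plus strand) lie 94.1 kb apart. The others are Cd163 (ENSMUSG00000008845) at chr6:124304656-124330527, Mrc1 (ENSMUSG00000026712) at chr2:14229392-14332057 and Fcna (ENSMUSG00000026938) at chr2:25624666-25628030. Folr2 (ENSMUSG00000032725) lies at chr7:101839988-101857194, Lyve1 (ENSMUSG00000030787) at chr7:110850607-110863239 and Stab1 (ENSMUSG00000042286) at chr14:31139013-31168641.

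The stretches before the start of Cd209f and Cd209g are shown because, over all macrophages pooled, the number of cells holding both of these neighbouring genes stood highest relative to the product of their shares. Within single mice it could be read in 1 mouse, where the ratio (3.05) was below the median of Lyve1 with Cd209f (5.55). RefSeq promoter windows, 250 bases before to 50 after the start in GRCm38.p6, were available for 9 of the 10 genes. The Cd209f and Cd209g windows share an identical run of 180 bases, whereas the longest run shared by any other pair of these genes was 12 bases. Of 32851 windows, 2 hold the first 60 bases of that run, those of Cd209f and Cd209g. The stretches upstream of their protein-coding exons follow, 5′ to 3′, from chr8:4105836-4106014 (minus strand) and chr8:4134486-4134651 (plus strand). Capitals mark the 83 bases of the shared run that fall in both stretches.
Cd209f: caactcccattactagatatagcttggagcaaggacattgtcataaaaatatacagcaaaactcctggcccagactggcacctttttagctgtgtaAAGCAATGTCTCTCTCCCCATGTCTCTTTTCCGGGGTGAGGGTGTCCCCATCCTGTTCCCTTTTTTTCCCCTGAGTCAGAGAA
Cd209g: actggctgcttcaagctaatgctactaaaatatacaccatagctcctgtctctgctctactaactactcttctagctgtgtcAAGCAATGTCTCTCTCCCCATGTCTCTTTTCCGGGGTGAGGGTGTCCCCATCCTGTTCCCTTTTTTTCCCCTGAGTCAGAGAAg
The shared capitals end in TGAGTCA, the consensus of the AP-1 factors, followed by GAGAA. Searched on both strands, TGAGTCA stood in 5.20% of all windows of that length and in those of 3 of these genes, Cd209f, Cd209g and Folr2. The Maf half-site TGCTGAC stood in 4.67% of windows and in that of Fcna, and the PU.1 site GAGGAAGT in 3.20% of windows and in none of these genes. In GENCODE vM21 the Cd209g stretch ends at the base before its protein-coding transcript, and the gene's interval above starts further upstream because it includes a transcript with a retained intron. These are matches of letters and not measured binding sites. The last 500 bases of the transcripts, which a 3′ assay reads, share no 60-base window between Cd209f and Cd209g, 0 of 441 windows of either in the other.

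The 8 lanes held 116552 barcodes and 46.0 to 99.3 M UMIs each, with UMI meaning 1 counted RNA molecule. Barcodes with 2 hashtags (12620) were removed as doublets, 89021 cells passed the filters, and 73918 of them were assigned to 1 mouse, 406 to 17309 per mouse. Replicate 1 of the B2m-null isotype group stood apart, since 30.1% of its barcodes were assigned to a mouse against 62.1% to 89.2% in the other lanes. Pairs of lanes shared 41 to 92 barcode sequences. Levels are given per 1000000 UMIs (CPM) of the summed cells of a mouse, and in such sums fewer positive cells and less RNA per cell cannot be told apart. Because the assay counts 3′ ends, levels are compared between cells and mice and not between genes.

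The 10 genes were read first across the clusters and classes of cells, named from marker genes, with the 10 genes left out of the clustering. Macrophage-like cells (33303 cells in 6 clusters, called macrophages here) held the highest pooled level of 8 of the 10, the others being Cd5l and Fcna, whose pooled levels were higher in non-classical monocytes. This placement is a description, since the genes were chosen as macrophage genes. Over 16 mice the median level in macrophages was 906 CPM for Mrc1, 215 for Stab1, 209 for Folr2, 65.6 for Cd209f, 54.0 for Lyve1, 39.3 for Fcna, 33.1 for Fcrls, 31.0 for Cd209g, 24.5 for Cd5l and 19.2 for Cd163. In CD8 T-like cells, which should lack these transcripts, the pooled values were 11.9 CPM for Mrc1, 4.65 for Stab1, 2.91 for Folr2 and 0.520 for Cd163. The larger of their clusters made up 29.2% and 16.5% of cells in control and B2m-null tumours under anti-CD40. Under isotype it made up 1.40% and 1.06%, so these values say little about free RNA in isotype lanes. Of the barcodes in their clusters, 8.56% and 16.0% held T and myeloid transcripts together, so free RNA alone was not measured.

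**Figure D1:**
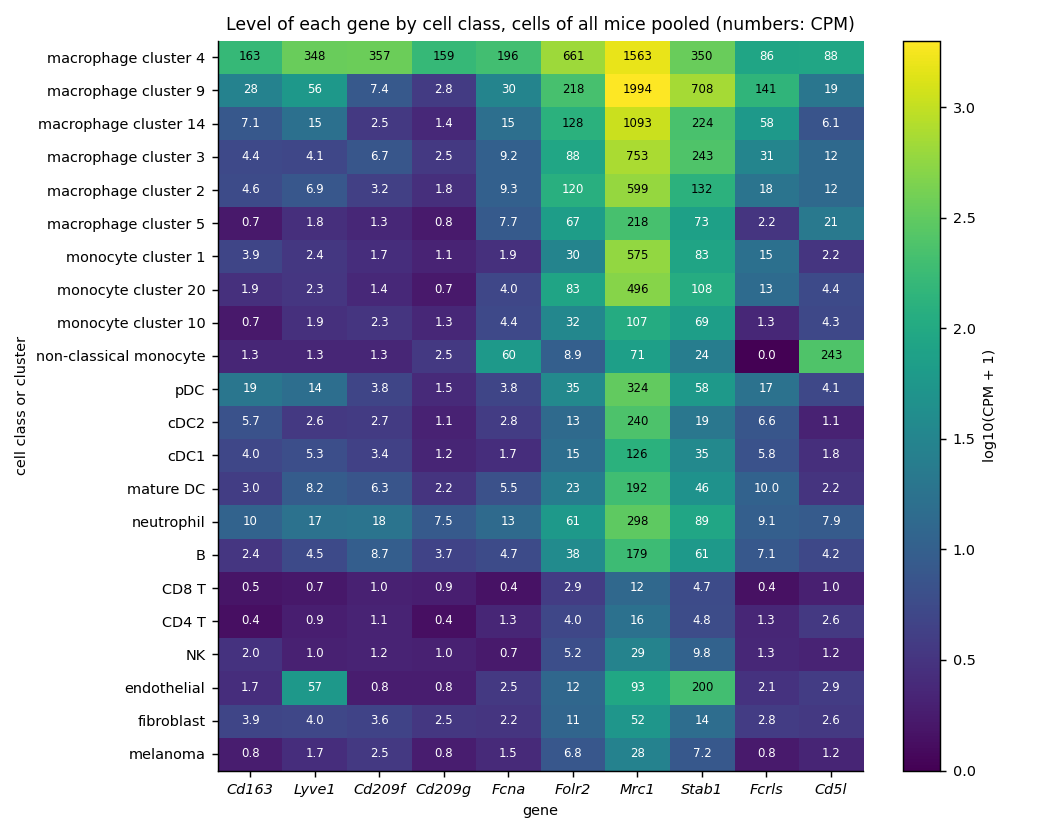
Pooled level of each of the 10 genes (numbers in CPM, colour as log10 of CPM + 1) in macrophage and monocyte clusters and other cell classes, cells of all mice together. Over pooled cells, cluster 4 holds the highest values of Cd163, Lyve1, Cd209f, Cd209g, Fcna and Folr2 among the macrophage clusters and cluster 9 those of Stab1, Fcrls and Mrc1, but within groups the order of Mrc1 and Fcrls varies.

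Within the macrophages the genes fell into overlapping sets. Cluster 4 (6396 cells) was led by Cd209f, Retnla, Lyve1 and Cd209g, and held 357 CPM of Cd209f, 348 of Lyve1, 163 of Cd163, 196 of Fcna and 661 of Folr2. Cluster 9 (3065 cells) was led by Stab1, Fcrls, Npl and Gas6, and held 708 CPM of Stab1 and 141 of Fcrls but 7.38 of Cd209f. Mrc1, the mannose receptor, was high in both, at a pooled 1563 CPM in cluster 4 and 1994 in cluster 9. These pooled values mix the groups, and cluster 9 made up 9.66% of cells in B2m-null tumours under isotype against 2.74%, 0.211% and 1.56% in control isotype, control anti-CD40 and B2m-null anti-CD40. Within groups the median of Mrc1 in clusters 4 and 9 was 1604 and 1701 CPM in control and 2141 and 1992 in B2m-null tumours under isotype, and 964 and 955 and 940 and 901 under anti-CD40, so it was higher in cluster 4 in 3 of the 4 groups, with 1 control anti-CD40 mouse in cluster 9. The median of Fcrls under isotype was 90.1 and 73.3 CPM in control and 134 and 147 in B2m-null tumours. Stab1 had the higher median in cluster 9 in all 4 groups. Cluster 5 (5874 cells), led by H2-M2, Gpnmb and Nos2, held the lowest pooled level among the macrophage clusters of all but Cd5l, with 0.673 CPM of Cd163, 1.78 of Lyve1 and 218 of Mrc1. This order mixes groups too, since cluster 5 made up 17.5% and 4.70% of control and B2m-null cells under anti-CD40. Under isotype it made up 1.71% and 0.972%. The isotype medians of Fcna were 13.8 and 15.4 CPM in cluster 5 and 5.80 and 12.7 in cluster 2. Stab1 in B2m-null tumours under isotype had medians of 220 CPM in cluster 5 (3 mice) and 196 in cluster 2.

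Some of the 10 genes were read in other cell classes as well. The part of free RNA and of doublets with macrophages in these values was not tested. Endothelial-like cells held a pooled 200 CPM of Stab1 and 56.6 of Lyve1, both known from sinusoidal or lymphatic endothelium, and of the 2 mice with enough of these cells 1 had no Lyve1. Mrc1 was read at 323 CPM in plasmacytoid dendritic-like cells (median mouse 246), at 240 in cDC2-like cells (160) and at 179 in B-like cells (58.7). Neutrophil-like cells, shallow at a median of 1058 UMIs, held 298 CPM of Mrc1 (median over 11 mice 285), 88.7 of Stab1 (69.0) and 60.6 of Folr2 (50.1). Their pooled 17.8 CPM of Cd209f and 12.7 of Fcna stood beside medians of 0 and 3.70 over these mice, with highest mice at 123 and 101. Non-classical monocyte-like cells (436 cells, led by Adgre4, Ace, Treml4 and Cd5l) held 243 CPM of Cd5l, with a median of 126 over the 6 mice with enough cells and a range of 0 to 633. Fcna stood there at a pooled 59.7 CPM from 47 counts, and its median over these mice, 33.7 (0 to 252), was below the 39.3 of macrophages. Monocyte-like cells (13353 cells) held 2.71 CPM of Cd163 and 3.03 of Cd5l in all.

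Genes of cluster 4 were also detected together in the same cells. Each macrophage was thinned to 2000 UMIs, which left 24570 cells, and the number of cells with both genes was set beside the product of the 2 shares. Cd209f and Cd209g were found together in 458 cells where 24.0 were given by the product. That pooled ratio includes differences between mice, and the 1 mouse with at least 5 cells given by the product had a ratio of 3.05. Lyve1 and Cd209f were together in 482 cells against 59.7 (median ratio within mice 5.55, 2.26 to 8.02 in 6 mice). Lyve1 and Fcna were together in 565 against 86.7, and Cd163 and Lyve1 in 352 against 54.8. Folr2 and Lyve1 were together in 1108 cells against 385, and within mice that ratio had a median of 3.01 (1.42 to 3.73 in 13 mice).

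The ratio cannot exceed 1 divided by the share of cells with either gene, so for widely detected genes such as Mrc1 it is held near 1 and is not set against that of rarer genes. Mrc1 and Stab1 shared 6189 cells against 4808, with a median ratio within mice of 1.21. Fcrls and Stab1 shared 1045 against 555 (1.43 in 12 mice), and Fcrls had median ratios with genes of cluster 4 of 1.61 with Cd163 (5 mice), 1.45 with Fcna (7 mice), 1.44 with Folr2 (11 mice) and 0.892 with Cd209g (3 mice). Cd5l shared 350 cells with Folr2 against 175 (median ratio 1.92 in 13 mice), 150 with Fcna against 39.3 and 211 with Stab1 against 218 (0.985 in 13 mice). With Fcrls, its neighbour in the genome, Cd5l shared 53 cells against 49.7. Cells of 1 mouse share a library, so these ratios are descriptions.

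**Figure D2:**
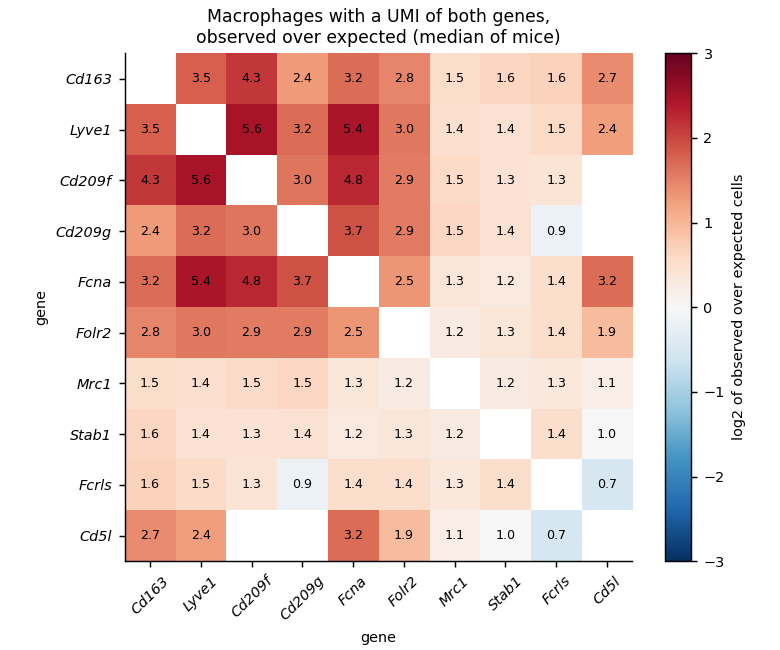
Number of macrophages with a UMI of both genes divided by the number given by the product of the 2 shares, as the median over mice with at least 5 cells given by the product, for each pair of the 10 genes (colour on a log2 scale, blank where no mouse qualified). Lyve1 with Cd209f has the highest value (5.55). The pairs that hold Mrc1, whose wide detection limits the ratio, or Stab1 lie between 0.985 and 1.57. Stab1 with Lyve1 has 1.38, and Folr2 with Lyve1 has 3.01.

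Macrophages of isotype-treated mice were compared next between B2m-null and control tumours, which is how the genes differed without anti-CD40. The same isotype mice also stand in the anti-CD40 contrasts known when the genes were chosen, so the tests of this comparison, here, on shares of cells and in monocytes, are no independent support, and nothing is read from a common direction of the 10. Mrc1, Stab1 and Cd163 were higher in macrophages of B2m-null tumours, and the fitted log2 difference of all 10 genes was above 0, with a median of 1.10 against 0.00206 for all 12006 genes tested. Of the 10 genes 3 passed the threshold of an adjusted p of 0.05 in edgeR's quasi-likelihood test, all higher, beside 2.30% of all genes that were called higher.

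Mrc1 stood at 716, 1256, 856, 984 and 956 CPM in control mice 1 to 5 and at 1648, 1816, 1614, 1521 and 1818 in B2m-null mice 1 to 5. Every B2m-null mouse was above every control mouse, and the log2 difference was 0.76 ± 0.14 (SE, edgeR adjusted p = 0.00642). Stab1, the receptor for modified lipoproteins, stood at 149, 255, 214, 197 and 297 CPM in control mice and at 458, 314, 289, 324 and 606 in B2m-null mice. One B2m-null mouse (289) lay below the highest control mouse (297), and the log2 difference was 0.81 ± 0.22 (SE, edgeR adjusted p = 0.0424).

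Cd163, the haemoglobin scavenger receptor, stood at 7.11, 47.5, 20.3, 18.8 and 19.7 CPM in control mice and at 42.6, 164, 62.5, 55.6 and 73.1 in B2m-null mice. The groups overlapped only through control mouse 2 (47.5) and B2m-null mouse 1 (42.6), and the log2 difference was 1.67 ± 0.44 (SE, edgeR adjusted p = 0.0451). B2m-null mouse 2 held the highest Cd163 of any mouse, from 353 macrophages. Without this mouse the log2 difference of Cd163 was 1.38 (edgeR adjusted p = 0.0668).

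Fcrls gave 16.2, 70.2, 34.9, 17.4 and 44.4 CPM in control mice and 111, 124, 77.2, 64.4 and 147 in B2m-null mice, a log2 difference of 1.52 ± 0.42 that missed the threshold (SE, edgeR adjusted p = 0.0548). Lyve1, the hyaluronan receptor, gave 15.8, 91.1, 47.5, 28.5 and 98.6 CPM in control mice against 91.4, 279, 108, 60.5 and 171, and Folr2 gave 127, 241, 158, 129 and 208 against 210, 567, 212, 216 and 318. Both overlapped between the groups, with log2 differences of 1.22 ± 0.57 and 0.74 ± 0.30 (SE, edgeR adjusted p = 0.227 and 0.168). The lectins Cd209f (7.19 to 111 CPM in control mice, 57.6 to 252 in B2m-null mice), Cd209g (2.35 to 40.4 against 21.6 to 139) and Fcna (9.34 to 54.7 against 38.3 to 159) had log2 differences of 1.09 ± 0.74, 1.22 ± 0.78 and 1.11 ± 0.49 (SE), with edgeR adjusted p = 0.428, 0.397 and 0.210. For all 3 lectins control mice 1 and 4 were the 2 lowest and B2m-null mouse 2 the highest of the isotype mice.

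**Figure D3:**
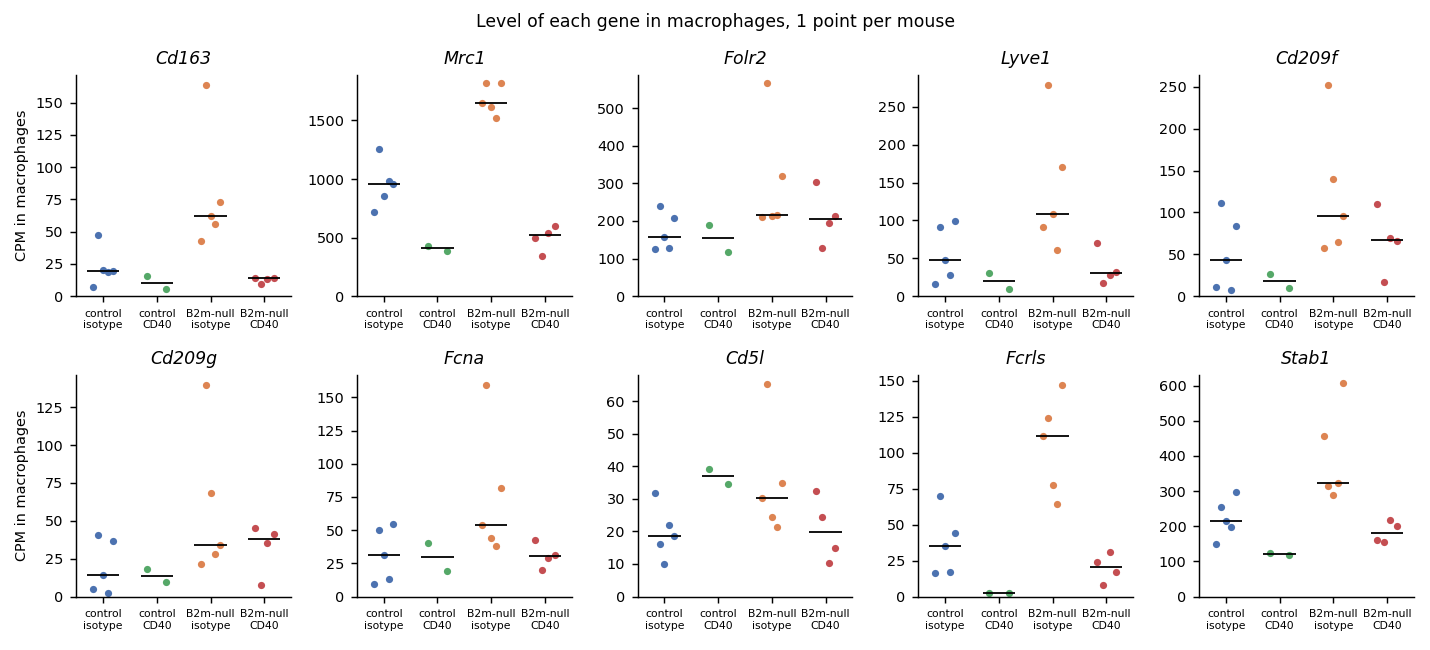
Level of each of the 10 genes in macrophages (CPM, from 0) by group, with 1 point for each of 16 mice and a line at the group median. Mrc1 lies between 716 and 1256 in control tumours under isotype and between 1521 and 1818 in B2m-null tumours under isotype, without overlap.

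The calls depended on single pools. Without replicate 1 of the control isotype group, or without replicate 1 of the B2m-null isotype group, none of the 10 genes passed in edgeR's test. Mrc1 then differed by 0.74 and 0.81 (adjusted p = 0.118 and 0.0833), Stab1 by 0.66 and 1.07 (0.387 and 0.0823) and Cd163 by 1.86 and 1.56 (0.170 and 0.155). Without replicate 2 of either isotype group Mrc1 kept its call, while Stab1 (adjusted p = 0.0598 and 0.0836) and Cd163 (0.152 and 0.0868) did not. With lanes as units and all cells of the lanes, 5 of the 10 passed, Mrc1 (edgeR adjusted p = 0.0601) not among them. In that fit the 2 control anti-CD40 lanes, repeat runs of 1 pool, stand as separate units and enter the shared estimate of the spread. Of 35 alternatives the call was kept in 32 for Mrc1, in 17 for Stab1 and in 15 for Cd163. These include fits that leave out only anti-CD40 mice or lanes and keep all isotype mice. The tallies are therefore no measure of stability to the isotype pools.

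The share of macrophages with at least 1 UMI of a gene was compared at equal depth, since macrophages had a median of 4346 UMIs in control and 5863 in B2m-null tumours under isotype. Each cell was thinned to 2000 UMIs, leaving out 21.5% and 14.2% of macrophages. Mrc1 was detected in 66.3% of control macrophages (median mouse, range 60.05% to 78.9%) and in 83.2% (75.6% to 92.5%) of B2m-null ones, and Stab1 in 28.4% (23.7% to 33.7%) and 39.5% (37.3% to 54.6%). Fcrls was detected in 5.07% (2.29% to 10.2%) and 17.8% (9.70% to 20.6%), and Cd163 in 2.47% (1.32% to 7.57%) and 7.56% (3.99% to 20.7%).

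Differences of the mean share over the 5 control and 5 B2m-null mice were 15.1 percentage points for Stab1 (two-sided exact permutation p = 0.00794, the smallest that 5 against 5 mice can give). They were 17.8 points for Mrc1 and 10.3 for Fcrls (exact p = 0.0159 for each), 6.05 for Cd163 (exact p = 0.0317) and 12.6 for Folr2 (exact p = 0.0556). The remaining 5 genes gave 2.14 to 7.91 points with exact p of 0.0714 to 0.190, and all 10 of these p-values are unadjusted. After the planned adjustment over the 10 genes none of these differences passed 0.05. In CD8 T cells at the same depth the highest share in any mouse was 7.69% for Mrc1, 2.33% for Stab1 and 1.15% for Fcrls and Cd163, so Cd163 in the lowest control mouse (1.32%) was close to that level. Without thinning the difference of Stab1 was 15.5 points (exact permutation p = 0.0714). The unthinned mean shares were 72.6% and 87.6% for Mrc1, 42.8% and 58.3% for Stab1, 11.2% and 28.6% for Fcrls and 4.94% and 12.2% for Cd163.

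Markers of other cell types were read in the same macrophages. The summed level of 7 monocyte markers was 460 to 911 CPM in control and 366 to 1015 in B2m-null tumours under isotype, and that of 5 lymphatic endothelial markers was 49.5 to 85.0 and 42.1 to 124. Up to 4 of those 5 lymphatic markers (Prox1, Flt4, Ccl21a, Pdpn and Mmrn1) were at 0 in a mouse. The summed level of 6 markers of plasmacytoid dendritic cells was 88.0 to 125 CPM and 120 to 248, with up to 1 and 3 of them at 0 in a mouse, and overlapped only there between 120 and 125. The lists of the other cell types overlapped as well. Their part in the result was not tested.

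Under anti-CD40 the levels of Mrc1, Fcrls and Stab1 in macrophages lay below those of every isotype mouse of the same tumour type, in both types. Cd163 did so in B2m-null tumours and overlapped in control tumours, and the other genes overlapped in 1 or both. The values are a description because the genes were chosen from this contrast. In control tumours 2 of the 10 genes passed the edgeR threshold (beside 10.4% of all genes called lower) and in B2m-null tumours 4 (beside 15.4%), all of them lower, and nothing is read from these counts. The median log2 change of the 10 was -0.89 and -0.96.

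Mrc1 stood at 431 and 388 CPM in the 2 control mice under anti-CD40 and at 494, 345, 543 and 599 in the 4 B2m-null mice, below every isotype mouse of its own tumour type. The log2 changes were -1.07 ± 0.20 and -1.55 ± 0.16 (SE). Cd163 stood at 15.7 and 5.55 CPM and at 14.4, 9.17, 13.4 and 14.1, so the B2m-null groups did not overlap (the lowest isotype mouse had 42.6) while the control groups did. Its log2 changes were -1.06 ± 0.62 and -2.28 ± 0.49.

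Fcrls stood at 2.24 and 2.19 CPM in control and at 24.0, 7.69, 31.3 and 16.8 in B2m-null mice under anti-CD40, with log2 changes of -3.84 ± 0.76 and -2.17 ± 0.47. No mouse under anti-CD40 reached the isotype mice of the same tumour type. Stab1 stood at 125 and 119 CPM and at 159, 156, 217 and 202 (log2 -0.72 ± 0.29 and -0.93 ± 0.23), and Lyve1 at 30.5 and 9.93 and at 70.5, 16.9, 28.1 and 32.2 (log2 -1.42 ± 0.81 and -1.72 ± 0.63). Lyve1 overlapped with the isotype mice in both tumour types and Stab1 in neither.

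Folr2, the folate receptor, gave 189 and 119 CPM in control mice and 304, 129, 196 and 214 in B2m-null mice under anti-CD40, with log2 changes of -0.03 ± 0.39 and -0.30 ± 0.32. Cd209f gave 26.9 and 9.59 CPM and 111, 17.2, 69.0 and 66.2, and Cd209g gave 17.96 and 9.49 and 45.3, 7.69, 35.3 and 41.1. Fcna gave 40.3 and 18.9 CPM and 42.4, 20.1, 29.2 and 31.3. All 4 of these genes overlapped with the isotype mice in control tumours. With the cells of each group pooled, the share of macrophages with any of the 10 genes was lower under anti-CD40. At equal depth 76.3% of control macrophages under isotype had at least 1 of them and 58.9% under anti-CD40, and the B2m-null values were 89.1% and 67.3%. At least 3 of the 10 were found in 15.0% and 8.60% and in 33.9% and 15.5%. Mrc1 alone was detected in a mean over mice of 66.6% and 84.4% of control and B2m-null macrophages under isotype. Mouse 2 held 6397 of the 8691 macrophages of the control anti-CD40 group counted before thinning, so its pooled values lean on 1 mouse. Before thinning, the median depth under anti-CD40 was 2761 UMIs in control and 5439.5 in B2m-null macrophages, and the 2000-UMI limit left out 38.9% and 17.5% of cells. The monocyte markers in these macrophages summed to 271 to 278 and 330 to 644 CPM, and the lymphatic endothelial markers to 77.6 to 195 and 89.4 to 139. In control macrophages the summed markers of CD8 T cells were 7.72 to 18.7 CPM under isotype and 32.9 to 49.2 under anti-CD40, and those of CD4 T cells 9.33 to 16.2 and 23.1 to 37.6. Those of gamma-delta T cells (1.23 to 2.23 and 5.41 to 7.40) and neutrophils (22.8 to 41.4 and 58.8 to 74.3) were likewise higher under anti-CD40 without overlap. Lower without overlap were those of monocytes, cDC2, mature dendritic cells (9.31 to 21.9 and 4.62 to 6.93), non-classical monocytes (38.4 to 58.8 and 31.3 to 35.9) and mast cells or basophils (1.11 to 2.46 and 0.505 to 1.06). In B2m-null macrophages the lists without overlap were those of melanoma (34.5 to 77.5 and 18.6 to 25.5 CPM) and plasmacytoid dendritic cells (120 to 248 and 73.5 to 102), both lower under anti-CD40. Their part in the result was not tested.

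**Figure D4:**
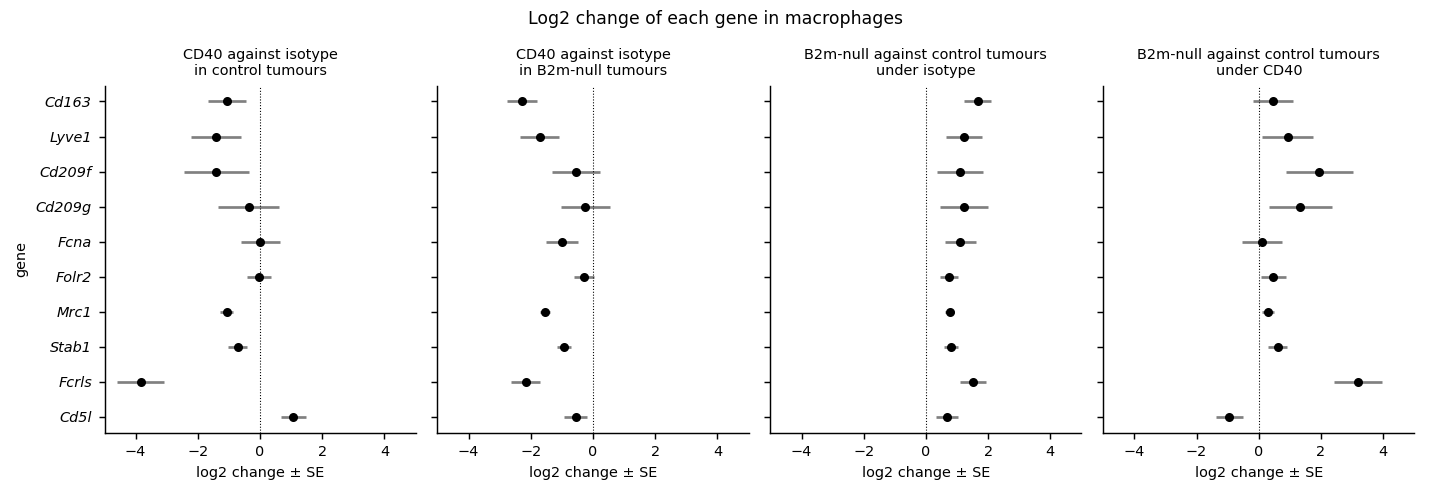
Fitted log2 change of each of the 10 genes in macrophages (points) with its standard error (bars), in 4 panels, 1 for each treatment or tumour comparison. All 10 points lie above 0 where B2m-null is set against control under isotype, with Cd163 at 1.67, and Cd5l changes side between the panels for anti-CD40.

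The mix of macrophage clusters differed alongside. Cluster 5, low in most of these genes when groups are pooled, made up a mean of 4.41% of macrophages in control and 1.95% in B2m-null tumours under isotype, and 49.1% and 14.2% under anti-CD40. Cluster 9, high in Stab1 and Fcrls, made up 7.02% and 21.0% under isotype and 0.635% and 4.66% under anti-CD40. Cluster 4, high in Lyve1, Cd209f and Cd163, made up 13.1% and 29.6% under isotype and 22.6% and 23.9% under anti-CD40. The mean of 29.6% includes B2m-null mouse 2 at 64.3%, and the median of that group was 20.2%. Genes that differ between the groups also define the clusters, so these shares carry no test.

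Within cluster 4 the level of several genes was lower under anti-CD40 as well. At clustering resolution 2, a macrophage cluster led by Lyve1, Cd209f and Cd163 made up 3.01% and 7.70% of control and B2m-null cells under isotype. Under anti-CD40 it made up 0.235% and 1.10%. Another, led by Cxcl13, Fxyd2, Ltc4s, Cd209g and Cd209f, made up 1.05% and 0.963% under isotype and 8.06% and 6.45% under anti-CD40. A change of make-up within cluster 4 and less RNA per cell therefore cannot be told apart in the values below. Lyve1 there had a median of 392 CPM (223 to 656) in control tumours under isotype and 112 (74.1 to 149) under anti-CD40, and of 422 (283 to 606) and 212 (156 to 279) in B2m-null tumours. Cd163 had medians of 187 and 61.1 CPM in control and 239 (195 to 284) and 76.7 (59.6 to 126) in B2m-null tumours. Fcrls had 90.1 and 8.57 CPM in control and 134 and 26.8 in B2m-null tumours. In all of these the ranges of isotype and anti-CD40 mice of the same tumour type did not overlap, except for Cd163 in control tumours, where 78.9 was the lowest isotype and 79.8 the highest anti-CD40 value. The ranges of Cd209f, Cd209g, Fcna and Cd5l there overlapped between the treatments in both tumour types. Cd209f had medians of 522 and 108 CPM in control but 404 and 385 in B2m-null tumours, and Cd209g had 169 and 84.3 and 172 and 194. Fcna had 186 and 138 and 239 and 147, and Cd5l had 93.1 and 121 and 96.8 and 61.3.

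The median of Mrc1 in cluster 4 was 1604 CPM (1503 to 1683) in control and 2141 (1851 to 2258) in B2m-null tumours under isotype, and 964 (791 to 1138) and 940 (831 to 1094) under anti-CD40. In cluster 2, led by Mmp12 and Arg1, Mrc1 had medians of 536 (420 to 678) and 906 (763 to 1096) under isotype and 243 (223 to 264) and 301 (262 to 357) under anti-CD40. Cluster 2 held 4.60 CPM of Cd163 and 6.85 of Lyve1 in all. In each of the 6 macrophage clusters the isotype range of Mrc1 lay above the anti-CD40 range of the same tumour type. Between the tumour types under isotype the B2m-null range lay above the control range in clusters 2, 4 and 14, and the ranges overlapped in cluster 3 (703 to 1162 and 1094 to 1433 CPM in control and B2m-null tumours), cluster 5 (333 to 711 and 537 to 712) and cluster 9 (1439 to 2048 and 1976 to 2362). Folr2 differed least in cluster 4, with medians of 696 (614 to 834) and 727 (524 to 797) CPM under isotype and 560 (438 to 683) and 678 (628 to 756) under anti-CD40.

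**Figure D5:**
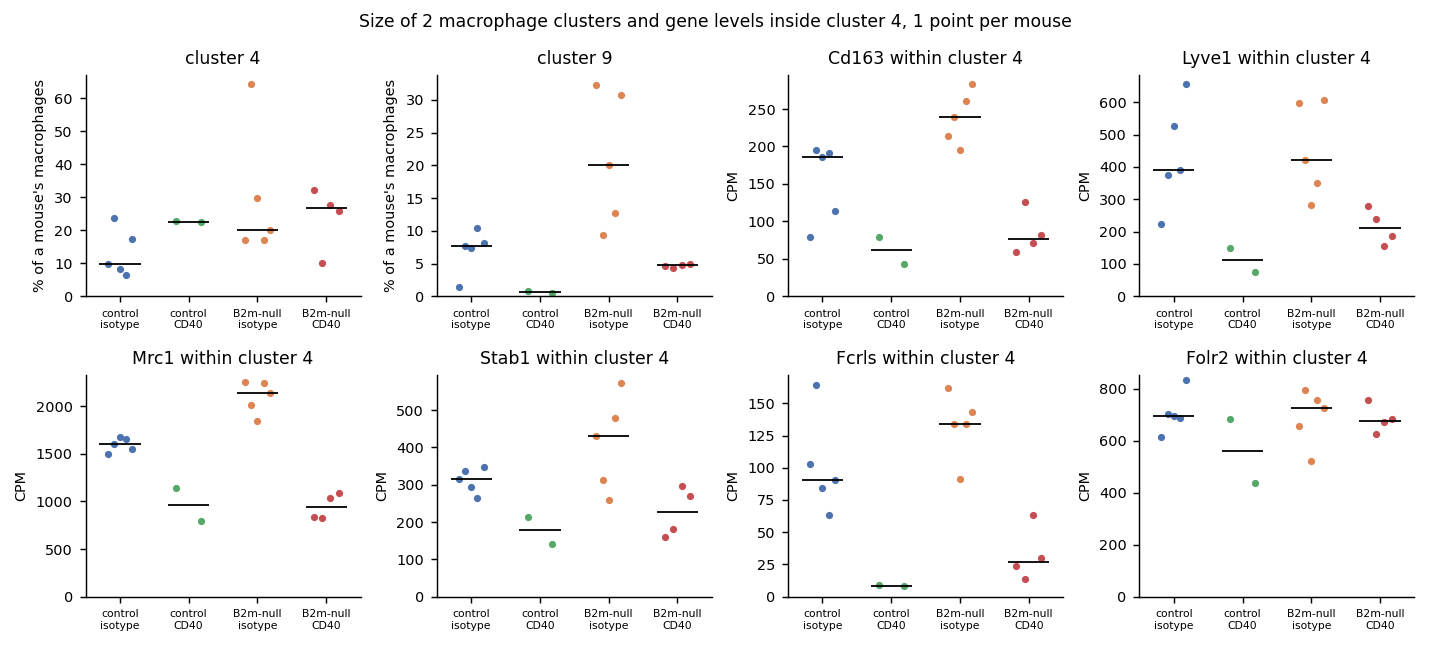
Share of each mouse's macrophages in clusters 4 and 9 (percent), and levels of Cd163, Lyve1, Mrc1, Stab1, Fcrls and Folr2 within cluster 4 (CPM, from 0), with 1 point per mouse and a line at the group median. Lyve1 lies at 74.1 to 149 in control and 156 to 279 in B2m-null tumours under anti-CD40, below the isotype mice of the same tumour type, while Folr2 overlaps between the 4 groups.

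Between the tumour types under anti-CD40, 1 of the 10 genes passed the edgeR threshold in macrophages, beside 5.20% of all genes called higher, and nothing is read from this count. As a description, Fcrls stood at 2.24 and 2.19 CPM in control and at 7.69 to 31.3 in B2m-null tumours, a log2 difference of 3.19 ± 0.77 (SE), which was 2.69 without replicate 2 of the B2m-null anti-CD40 group. Mrc1 differed by 0.29 ± 0.20 and Cd163 by 0.45 ± 0.64 (SE). The median of the 10 genes was 0.54, against -0.03 for all genes.

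The anti-CD40 change was then compared between the tumour types by an interaction term. Results of both anti-CD40 contrasts were known when the genes were chosen, so these values are a description too. The count of the 10 genes past the threshold in macrophages was 0 by edgeR (1 at an unadjusted p under 0.05, 0 by DESeq2), beside 14.4% of all genes called in either direction, and nothing is read from it. Cd5l, the secreted scavenger protein, stood at 31.7, 16.3, 9.96, 21.9 and 18.6 CPM in control mice under isotype and at 39.2 and 34.6 under anti-CD40, which put both treated mice above all 5 isotype mice. In B2m-null tumours it stood at 30.2, 65.3, 24.5, 21.5 and 34.9 CPM under isotype and at 32.3, 24.6, 10.2 and 14.8 under anti-CD40, which overlapped. The log2 changes were 1.07 ± 0.41 and -0.56 ± 0.38, and their difference was -1.62 ± 0.56 (SE). That difference was -1.95 with cells gated by markers one by one and -2.23 with the stricter cell filter. Both are larger than in the main fit, and its values under the other alternatives are not given here. Fcna, the other gene whose log2 change in control tumours was not below 0, gave 0.01 ± 0.63 there and -0.99 ± 0.53 in B2m-null tumours.

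In monocyte-like cells 8 of the 10 genes passed the filter on low counts (Cd209f and Cd209g did not), and Mrc1 carried the clearest values. It stood at 439, 529, 419, 438 and 460 CPM in control mice under isotype and at 861, 811, 816, 860 and 694 in B2m-null mice, without overlap. The log2 difference was 0.76 ± 0.16 (SE, edgeR adjusted p = 0.00833). This call was kept in 30 of 35 alternatives. It was lost with cells gated by markers one by one (log2 0.65, edgeR adjusted p = 0.519), with lanes as units (0.87, 0.180), without replicate 1 or 2 of the control isotype group (adjusted p = 0.153 and 0.0530) and without replicate 1 of the B2m-null isotype group (0.192). Under anti-CD40 Mrc1 stood at 314 and 272 CPM in control and at 169, 94.96, 179 and 225 in B2m-null mice, so the B2m-null mice lay below the control mice there. As a description the log2 difference was -0.75 ± 0.22 (SE), but it was -0.43 without replicate 1 of the B2m-null anti-CD40 group and -0.28 with cells gated by markers one by one. Of the 8 genes 1 passed the threshold in that comparison, beside 3.01% of all genes called lower, and nothing is read from this count.

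As a description, the log2 change of Mrc1 under anti-CD40 in monocytes was -2.08 ± 0.18 (SE) in B2m-null and -0.57 ± 0.22 in control tumours, and their difference was -1.51 ± 0.27. That difference was -0.93 with cells gated by markers one by one and -1.63 with lanes as units. Of the 8 genes 1 passed the interaction's threshold, beside 5.10% of all 9958 genes called lower, and nothing is read from this count.

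The make-up of the monocytes moved with this result. Cluster 1, led by Ccl24, Vcan and Chil3, made up a median of 80.8% of monocytes (77.1% to 88.6%) in control and 95.8% (90.3% to 97.1%) in B2m-null tumours under isotype, and 64.1% (56.9% to 71.2%) and 39.8% (10.5% to 50.7%) under anti-CD40. Cluster 10, led by Ly6i and Nos2, made up 3.09% and 0.647% under isotype and 33.5% and 55.1% under anti-CD40. Within cluster 1 Mrc1 had medians of 466 CPM (427 to 553) and 822 (680 to 884) under isotype and 387 (357 to 417) and 276 (216 to 304) under anti-CD40, in the same order as in all monocytes. Cluster 10 did not show that order. There Mrc1 had medians of 115 CPM (70.2 to 165) under isotype and 141 (93.8 to 188) under anti-CD40 in control tumours. In B2m-null tumours it stood at 226 in the 1 isotype mouse with enough cells and at 116 (75.6 to 143) under anti-CD40. Macrophage markers in the monocytes summed to 4493 to 7289 CPM in control and 3070 to 5586 in B2m-null tumours under isotype, and to 4407 to 6062 and 4111 to 6067 under anti-CD40. Monocyte markers were lower under anti-CD40 without overlap, 4056 to 6394 and 2734 to 2876 CPM in control tumours. Their B2m-null values were 3974 to 5243 and 3084 to 3625. B cell markers were likewise lower in both. In control tumours cDC2, endothelial, mast cell or basophil and non-classical monocyte markers were lower, and cDC1, fibroblast and gamma-delta T markers higher. In B2m-null tumours melanoma and plasmacytoid dendritic cell markers were lower. Their part was not tested.

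Cd163 in monocytes was also called higher in B2m-null tumours under isotype (log2 1.91 ± 0.48, SE, edgeR adjusted p = 0.0213), from 26 counts in 5 control mice and 57 in 5 B2m-null mice. The groups overlapped, at 0.514 to 2.77 CPM in control and 0 to 15.2 in B2m-null mice. B2m-null mouse 5 held 31 of those 57, and without it the log2 difference was 1.16 (edgeR adjusted p = 0.250). The call was kept in 21 of 29 alternatives and lost, among others, with thinned cells (edgeR adjusted p = 0.124), under stricter limits on cells (0.171), with lanes as units (0.0642) and without replicate 1 or 2 of the control isotype group (0.249 and 0.0795). The Mrc1 and Cd163 calls stood beside 1.20% of all genes called higher. Neither control mouse under anti-CD40 had a count of Cd163 in its monocytes, which allows up to 2.94 and 1.58 CPM (3 counts, counting error only). The 5 control mice under isotype stood at 0.514, 2.77, 2.18, 1.96 and 2.18 CPM, all under the first of these limits and 4 above the second. Anti-CD40 against isotype called 0 of the 8 genes in control tumours by edgeR (2 at an unadjusted p under 0.05, 0 by DESeq2, beside 8.29% of all genes) and 3 in B2m-null tumours (beside 14.9% called lower), Mrc1, Fcrls and Cd163, all lower. These counts are a description. Stab1 in monocytes was 55.1 to 98.3 and 83.4 to 151 CPM under isotype and 64.6 to 77.3 and 65.7 to 95.6 under anti-CD40. Isotype and anti-CD40 mice of the same tumour type overlapped, as did the tumour types under either treatment.

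For 5 of the genes, those most alike in their level over 16 mice were sought among 5691 genes with a mean of at least 20 CPM in macrophages, by Spearman's rho. The mice share groups, pools and depth, so the coefficients are descriptions. Nearest to Mrc1 were Cela1 (0.979), Igf1 (0.976), which encodes insulin-like growth factor, and Dusp6 (0.971). Nearest to Cd163 were F13a1 (0.965), which encodes a subunit of coagulation factor XIII, Nxpe5 (0.950) and Cers5 (0.932). Nearest to Fcrls were Npl (0.976), Cbr2 (0.968) and Snx3 (0.962), and nearest to Stab1 was Fcrls itself (0.944), then Rnase4 (0.935) and Ap1b1 (0.929). Nearest to Folr2 were Ifi27l2a (0.924), Rab11fip5 (0.921) and Ap2m1 (0.891).

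Other genes of the same processes were tested in macrophages. Their lists were drawn up with earlier results of these data known, so the counts are no independent support. Over all genes tested, 11.7% were called higher and 10.4% lower under anti-CD40 in control tumours, and 15.8% higher and 15.4% lower in B2m-null tumours, and every count under anti-CD40 below stands beside these shares. Of 25 tested scavenger receptors and lectins outside the 10, 3 rose and 4 fell under anti-CD40 in control tumours and 2 rose and 5 fell in B2m-null tumours, with median log2 changes of -0.12 and -0.13. Siglec1, the sialoadhesin of resident macrophages, fell from a mean of 33.3 to 10.4 CPM in control tumours (log2 -1.53 ± 0.23, SE, edgeR adjusted p = 0.000179) and from 44.98 to 19.7 in B2m-null tumours (-0.94 ± 0.18, 0.000988). Cd209a, a lectin of the same family as Cd209f that marks dendritic cells, fell in both tumour types (log2 -2.84 and -5.38, edgeR adjusted p = 0.0284 and 0.00034), from a mean of 3.79 to 0.318 CPM in control and from 12.7 to 0.161 in B2m-null tumours. Mgl2, a galactose-type lectin, fell in control tumours from 68.7 to 6.96 CPM (log2 -3.25, edgeR adjusted p = 0.0135). Both genes lead the cDC2-like cluster, which made up 4.32% and 0.486% of cells in control tumours (isotype and anti-CD40) and 5.65% and 0.804% in B2m-null tumours. The summed level of 5 cDC2 markers in the macrophages was 28.7 to 63.3 CPM and 21.4 to 25.9 in control and 15.4 to 60.9 and 18.9 to 24.9 in B2m-null tumours. Cd209a is itself 1 of these 5 markers, so the sum is not separate from its fall. The part of these cells in the result was not tested. Ly75, the DEC-205 receptor, rose by log2 3.53 and 2.44. Between the tumour types under isotype 3 of the 25 were lower and 0 higher in B2m-null tumours, Fcrl5, Clec4a2 and Cxcl16, beside 3.10% of all genes called lower.

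Of 14 tested genes for the uptake of dying cells, 1 fell in control tumours under anti-CD40 and 1 rose and 4 fell in B2m-null tumours, among them Gas6, the bridge between dying cells and Mertk (log2 -1.36, edgeR adjusted p = 0.0201). Between the tumour types 0 were called by edgeR under isotype (8 at an unadjusted p under 0.05) and 0 under anti-CD40 (1). Of all genes, 2.30% were called higher and 3.10% lower under isotype, and 5.20% higher under anti-CD40. The unadjusted counts have no such share beside them, and nothing is read from them. Of 15 genes of haemoglobin and haem handling, 2 rose and 1 fell in control and 4 rose and 4 fell in B2m-null tumours under anti-CD40. Slc40a1, the iron exporter ferroportin, fell in B2m-null tumours (log2 -2.24 ± 0.55, SE, edgeR adjusted p = 0.00877), Tfrc, the transferrin receptor, fell there as well (-1.29, 0.00133), and Fth1, the ferritin heavy chain, rose by 0.72 and 0.92 in control and B2m-null tumours.

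Of 14 genes of hyaluronan and folate handling, 2 rose and 4 fell under anti-CD40 in control tumours and 3 rose and none fell in B2m-null tumours. Those that fell in control tumours included Shmt1, an enzyme of the folate cycle, and Hmmr, also a gene of dividing cells. Of 25 regulators tested, Maf, a transcription factor known to drive resident macrophage genes, was higher in B2m-null than in control tumours under isotype (724 against 460 CPM, log2 0.59 ± 0.15, SE, edgeR adjusted p = 0.0304). Under anti-CD40 Maf fell in B2m-null tumours to 312 CPM (log2 -0.9996 ± 0.16, SE, edgeR adjusted p = 0.000269), and in control tumours it stood at 282 CPM (-0.56 ± 0.20, 0.0553). Under anti-CD40 3 of the 25 regulators fell in control tumours (Pparg, Nr3c1 and Csf1), and 1 rose and 4 fell in B2m-null tumours.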

How the data were processed

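Per the file headers and the submitters' processing notes, the authors ran bcl2fastq 2.20.0.422 and Cell Ranger 3.0.0 against mm10 and deposited raw UMI counts per gene, hashtag and barcode for each lane. No source used here gives the annotation release. From those counts, hashtags were called per lane with a mixture model (at least 20 counts, posterior 0.9; a barcode with a second hashtag over 2.5 SD was a doublet; no other doublet caller was run). Barcodes below 200 genes or above 10% mitochondrial counts were dropped. They were clustered with scanpy 1.11.5 on 2000 variable genes without the 10 genes, 40 principal components, 20 neighbours and Leiden resolution 1. Clusters were named from fixed marker lists, with the naming threshold set after seeing the clusters, and a difference from other studies may come from these rebuilt names.

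Counts were summed per mouse with at least 20 cells of a class and fitted with edgeR 4.0.16 (R 4.3.3, TMM scaling, quasi-likelihood test, 4 groups in 1 fit, Benjamini-Hochberg over all genes past the filter on low counts). The 2 control anti-CD40 lanes were summed per mouse. Mice of 1 lane share a library, so p-values over mice measure the spread between mice within few pools. The alternatives were RLE scaling, DESeq2 1.42.0, no filter, stricter cells (500 genes, 5%), another clustering resolution (2), a per-cell marker gate, thinned cells, a minimum of 50 cells, lanes as units, a replicate block, and each mouse or lane left out. The edgeR fit was checked on counts simulated independently per mouse with no pool effect, which cannot cover mice that share a pool. The exact permutation test was checked on known values. Shares were tested by exact permutation over mice and their p-values are given unadjusted. Under the planned adjustment over the 10 genes, whose values are left out, none passed 0.05.

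The 10 genes and the lists of related genes were chosen with earlier results of these data known. All 10 are named, then of each list genes past an adjusted p of 0.05 in macrophages (the largest changes first), and for 5 of the genes the 3 most alike by Spearman's rho. Confidence limits for 0 counts use 3 counts. Protein sequences were not used here. Some results of the related lists are not reported here.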

Additional observations from a re-analysis of the deposited data

Results flagged for a closer look

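In B2m-null tumours under isotype, Cd163 in macrophages of mouse 2 stood at 164 CPM, far above the other 4 mice (42.6 to 73.1). Cluster 4 made up 64.3% of the 353 macrophages of mouse 2 and 16.95% to 29.7% in the other 4 mice. Within cluster 4 Cd163 spanned 195 to 284 CPM in that group. The part of this mix in the value was not tested. Mouse 2 also came from the lane with 30.1% of barcodes assigned. The same mouse had the highest Cd209f and Fcna in monocytes, each at 16.1 CPM, which were 4 counts each. Cd209g in monocytes of B2m-null isotype mouse 4 stood at 0.619 CPM from 3 counts where the other mice of the group had none. Lyve1 in monocytes of control isotype mouse 5 stood at 5.09 CPM from 14 counts. These are 5 of 60 groups of 4 or 5 mice examined for 1 mouse standing apart. The limit used is passed by about 1 in 20 groups of independent normal values. Several of these groups hold few counts, and the groups share mice, so that rate does not apply to them.

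For Mrc1 in monocytes, the anti-CD40 change in B2m-null tumours minus that in control tumours was -1.51 on the log2 scale, and the interaction term passed edgeR's threshold. Results of the anti-CD40 comparisons were known when the 10 genes were chosen, so the value is a description and no support. It was lost with cells gated by markers one by one and with lanes as units.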

How the results depend on the processing

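Of 2877 log2 values of single genes under alternatives, 2646 kept their direction and their side of the threshold, 87 lost a call, 44 gained one, and 100 had the other sign, none of these with either value called. The counts of called genes were 2, 4, 3, 1 and 0 in macrophages (anti-CD40 in control tumours, anti-CD40 in B2m-null tumours, tumour type under isotype, tumour type under anti-CD40, interaction), and 0, 3, 2, 1 and 1 in monocytes. With lanes as units the macrophage counts were 5 for anti-CD40 in control tumours, 6 in B2m-null tumours, 5 for tumour type under isotype and 3 under anti-CD40, and the monocyte counts were 0 for tumour type under isotype, 0 under anti-CD40 and 0 for the interaction. In those fits the 2 control anti-CD40 lanes, repeat runs of 1 pool of 2 mice, count as separate units, so they hold more units than distinct samples. Without the filter on low counts tumour type under isotype gave 1 in macrophages and tumour type under anti-CD40 gave 0 in monocytes. With stricter cells the macrophage counts were 2 for tumour type under anti-CD40 and 1 for the interaction, and the monocyte counts 1 for anti-CD40 in control tumours and 1 for tumour type under isotype. With the per-cell gate the interaction gave 1 in macrophages, and monocytes gave 1 for anti-CD40 in B2m-null tumours, 0 for tumour type under isotype, 0 under anti-CD40 and 0 for the interaction. Under that gate Mrc1, Folr2 and Stab1 were the genes past the filter on low counts in monocytes, so Fcrls and Cd163 had no test there. Tumour type under isotype in monocytes gave 1 with DESeq2, which gave Cd163 no adjusted p, and 1 with thinned cells, and tumour type under anti-CD40 in monocytes gave 0 with RLE scaling, with resolution 2 and with thinned cells. The cause of the other changes was not tested.

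Leaving out each mouse, the macrophage counts ranged from 1 to 4 for anti-CD40 in control tumours, 4 to 5 in B2m-null tumours, 1 to 4 for tumour type under isotype, 0 to 1 under anti-CD40 and 0 to 1 for the interaction, and the monocyte counts from 0 to 1, 3 to 3, 1 to 3, 0 to 1 and 1 to 1. Leaving out each lane gave 2 to 3, 3 to 4, 0 to 3, 0 to 1 and 0 to 1 in macrophages. In monocytes it gave 0 to 1, 2 to 3, 0 to 2, 0 to 1 and 1 to 1. A lane is a pool in the other groups, but the 2 control anti-CD40 lanes hold 1 pool, which was never left out as a whole. Of 170 shares, 137 were unchanged in call at an unadjusted p of 0.05. Dropping replicate 1 of either isotype group leaves 2 mice against 5, where the exact test cannot reach 0.05. The outcome of those alternatives was therefore fixed beforehand, and the tally includes them. Without thinning the difference of Stab1 was 15.5 points (exact permutation p = 0.0714, n = 5 and 5), and Folr2, Lyve1, Fcna and Cd5l passed an unadjusted 0.05. Mrc1 under isotype kept its call in 32 of 35 alternatives in macrophages and 30 of 35 in monocytes, Stab1 in 17 and Cd163 in 15 of 35. These tallies include fits that leave out only anti-CD40 mice or lanes. The related lists were fitted once.

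With the replicate block and control anti-CD40 left out, tumour type under isotype gave 3 in macrophages (2 without the block) and 1 in monocytes (1 without), and anti-CD40 in B2m-null tumours 4 in macrophages (4 without). Lanes with the same number deviated together with correlations of -0.02 to 0.32, so the numbers were not taken as pairs.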
